A study of Vitis vinifera with 165 samples.

Results

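The flavonoid 3'-hydroxylases (F3'H) and flavonoid 3',5'-hydroxylases (F3'5'H) of Pinot noir, a red wine grape, were followed through berry ripening over 3 seasons. The 10 gene models were taken by their IDs, 2 for F3'H (VIT_17s0000g07200 and VIT_17s0000g07210) and 8 tandem copies for F3'5'H (VIT_06s0009g02810, VIT_06s0009g02830, VIT_06s0009g02840, VIT_06s0009g02860, VIT_06s0009g02880, VIT_06s0009g02910, VIT_06s0009g02920 and VIT_06s0009g02970), out of 29971 in the table. No cut on a measured value was used, but the members were chosen with earlier results of these data known. All 10 were in the table, and all 10 reached 1 RPKM (reads divided by gene model length and by library size) in at least 3 of 165 libraries. That filter was passed in few libraries by some copies: VIT_06s0009g02860 reached 1 RPKM in 65 libraries and VIT_06s0009g02910 in 48.

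Vines had lost 75% or 50% of their clusters after fruit set. Both levels were thinned, so no comparison here is with unthinned vines, which were not analysed here. All vines were 1 clone (FPS 23) on Freedom rootstock near Modesto, California. Days are counted from veraison, when berries soften, sweeten and colour. In 2012 both levels were sampled on days -28, -18, -9, 0, 11, 21 and 32, with a last point on day 34 for 75% and day 42 for 50% thinning. In 2013 both were sampled on days -14, -7, 0, 7, 14, 21, 28, 35 and 37. In 2014 both were sampled on days -14, -6, 0, 7, 14, 21, 28, 35, 42 and 49, and 75% thinning also on day 38. Each of the 55 groups held 3 libraries, each from pericarp (skin and flesh) of 60 pooled berries. Replicate numbers carry no row or block in the labels, and the p-values therefore describe the spread between pooled samples alone.

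Both enzymes are cytochrome P450 hydroxylases that act on the B ring of flavonoids. F3'H adds a hydroxyl group at the 3' position and opens the route to cyanidin and peonidin pigments. F3'5'H adds hydroxyl groups at the 3' and 5' positions and opens the route to delphinidin, petunidin and malvidin pigments. In red grapes these anthocyanins build up in the skin from veraison, and F3'H and F3'5'H compete for the same precursors. Skin and flesh were extracted together, so fewer pigmented cells and less RNA per cell cannot be told apart in any value below.

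Read depth was not given. The value of 1 read, estimated from 1776 rarely detected gene models, put the libraries between 0.487 and 1.99 times the median depth. The season medians were 0.959, 1.01 and 1.00 times in 2012, 2013 and 2014. No table used here pairs the IDs with gene products, so the tissue label was not checked against markers. Reads from near-identical copies may be divided between them, which makes the single F3'5'H copies less certain than their sum, and the sum of the 8 copies is therefore given by day, by season and by thinning level.

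Because RPKM is per length, levels can be set side by side between gene models. VIT_17s0000g07200 was the most abundant of the 10, with a lowest level of 15.9, a median of 40.9 and a highest of 91.2 RPKM over the 165 libraries. The other F3'H, VIT_17s0000g07210, had 1.61, 6.24 and 19.9 RPKM at the same points. VIT_06s0009g02830 led the F3'5'H copies, with 2.61, 15.9 and 62.2 RPKM.

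VIT_06s0009g02880, VIT_06s0009g02840 and VIT_06s0009g02810 followed with medians of 6.19, 5.76 and 4.63 RPKM. VIT_06s0009g02970 and VIT_06s0009g02920 had medians of 3.14 and 2.05 RPKM, and VIT_06s0009g02910 and VIT_06s0009g02860 medians of 0.567 and 0.276 RPKM. VIT_06s0009g02830 made up 33.9%, 36.2% and 54.6% of the F3'5'H sum over all libraries of 2012, 2013 and 2014.

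The 2 families followed different courses. Up to day 14, summed F3'5'H had its lowest day mean before veraison in each season and its highest on day 0 (2012) or day 7 (2013 and 2014), with lower values at the next sampling. Values late in the season could be as high, and in 2012 the sum averaged 94.4 RPKM on day 42 (50% thinning only) and 84.6 RPKM on day 0. Summed F3'H had its lowest day mean on day -9 in 2012 and on day 0 in 2013 and 2014, and was higher late in each season. In 2013 it averaged 95.7 RPKM on day 35 and 90.0 RPKM on day 37. In 2013, median summed F3'5'H over the 6 libraries of a day was 17.7 RPKM on day -14, 27.5 on day -7, 72.2 on day 0, 133 on day 7, 54.3 on day 14 and 68.0 on day 21.

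In the same libraries of 2013, median summed F3'H was 65.1 RPKM on day -14, 37.1 on day -7, 32.8 on day 0, 42.3 on day 7, 49.0 on day 14 and 64.4 on day 21, and reached 92.5 RPKM on day 35. The lowest F3'5'H library of day 7 in 2013, at 115.6 RPKM, lay above every library of days -14, -7, 14, 21, 28 and 35. Its range overlapped that of day 0, where 1 library had 121 RPKM, and that of day 37.

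**Figure D1:**
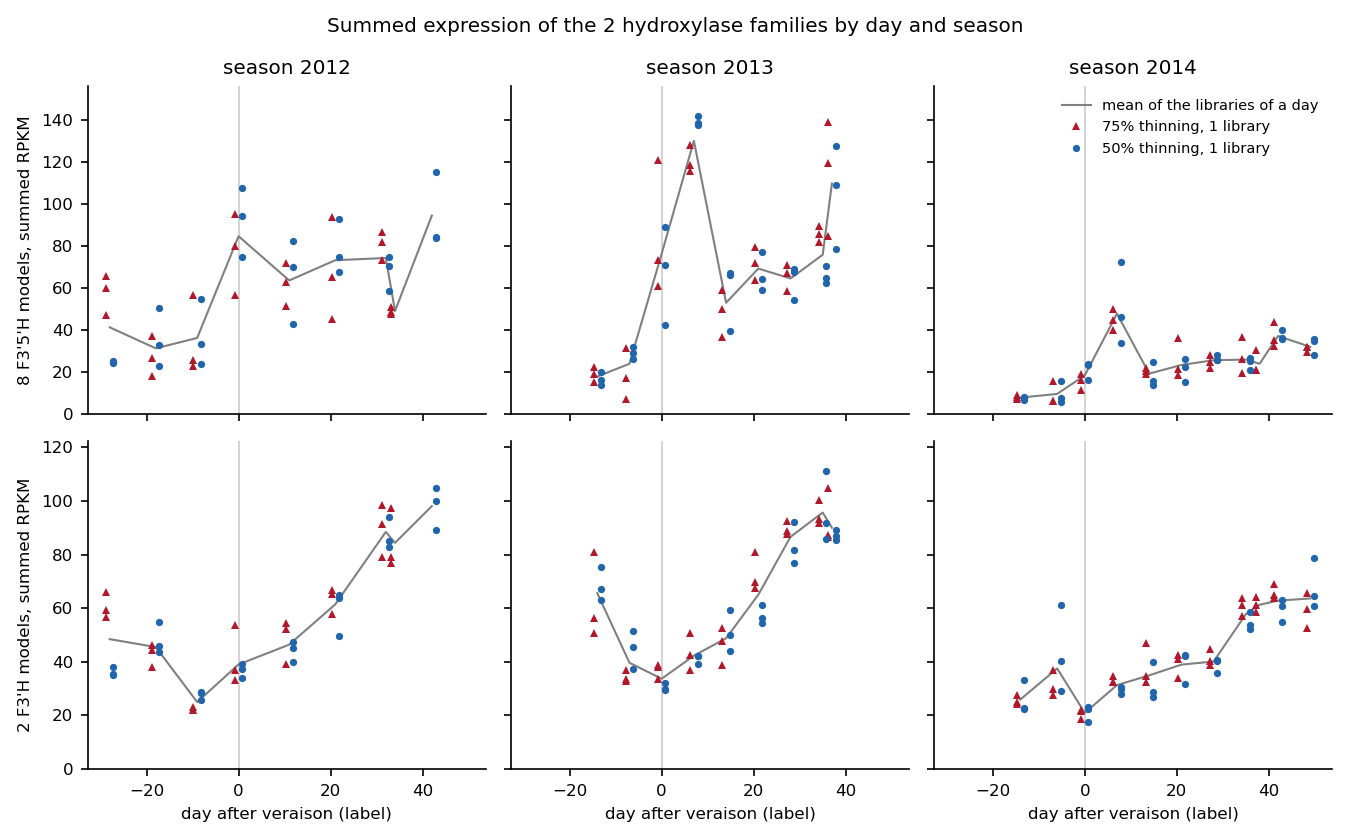
Summed RPKM of the 8 F3'5'H models (top) and the 2 F3'H models (bottom) against the labelled day after veraison, in 3 seasons; each symbol is 1 library (red triangles 75% and blue circles 50% thinning, set slightly apart) and the line is the mean of the libraries of a day. F3'5'H is highest on day 7 in 2013, with a median of 133 RPKM, F3'H is higher late in each season than at veraison, and both lie lower in 2014.

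The day of the highest F3'5'H expression up to day 14 was shared by most copies. It was day 0 for 7 of 8 copies in 2012, when sampling was about every 10 days, and day 7 for 8 of 8 in 2013. In 2014 it was day 7 for 6 of 8, and the other 2 copies had their highest mean on day -14. Those 2 were VIT_06s0009g02860 and VIT_06s0009g02910, which averaged 0.0414 and 0.253 RPKM over the 63 libraries of that season. VIT_06s0009g02920, counted among the 6, averaged only 0.0348 RPKM on its highest day. Some copies were higher still after day 14. On days sampled at both levels, VIT_06s0009g02810, VIT_06s0009g02880, VIT_06s0009g02910 and VIT_06s0009g02970 peaked on day 37 in 2013 and day 42 in 2014. In 2012, VIT_06s0009g02810 and VIT_06s0009g02910 peaked on day 32 and VIT_06s0009g02880 on day 21. In 2014 VIT_06s0009g02860 peaked on day 49, at 0.110 RPKM. In all other cases the highest day was the same as up to day 14.

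**Figure D2:**
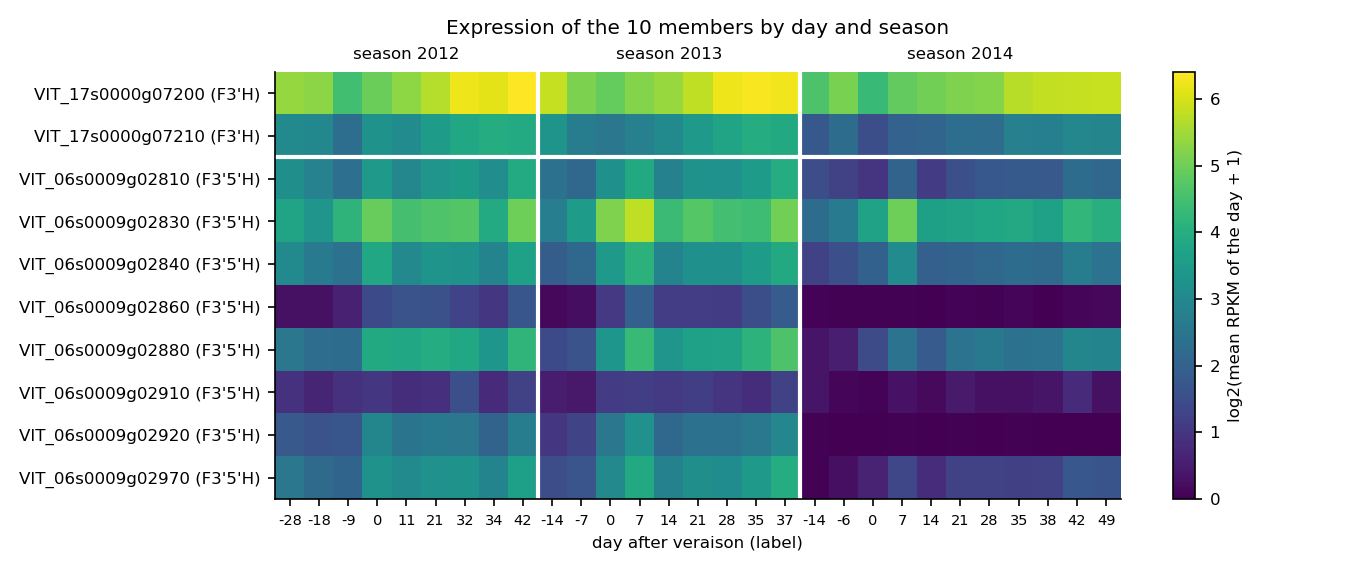
Expression of the 10 members as log2 of the mean RPKM of a day plus 1, by labelled day within each season (white lines separate seasons and families). VIT_17s0000g07200 is brightest late in each season, VIT_06s0009g02830 on day 7 in 2013 and 2014, and VIT_06s0009g02920 and VIT_06s0009g02860 are dark in all of 2014.

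Ripening was tested as day 21 minus the green stage (day -14, or day -18 in 2012), averaged over both thinning levels and the 3 seasons. A member rose or fell where the limma adjusted p (Benjamini-Hochberg over 20460 gene models) was at most 0.05 and the difference in log2(RPKM + 1) was at least 1 in size. Of the 10 members 3 rose and 0 fell, against 7.66% of all gene models called higher and 22.3% called lower. The 3 were F3'5'H copies, and the median difference of the 8 copies was 0.86 on the log2 scale, against -0.30 for all gene models.

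VIT_06s0009g02880 had the largest difference of the 10, with means of 10.3 RPKM on day 21 and 1.98 RPKM in green berries, a log2 difference of 2.01 ± 0.11 (SE, adjusted p = 3.55e-36). VIT_06s0009g02830 averaged 20.5 RPKM on day 21 and 6.22 RPKM in green berries (1.56 ± 0.15, adjusted p = 2.91e-18). VIT_06s0009g02970 averaged 5.97 RPKM on day 21 and 1.84 RPKM in green berries (1.30 ± 0.09, adjusted p = 5.94e-26).

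The other 5 copies had log2 differences of 0.33 to 0.93 and adjusted p-values below the threshold, but lay under the size of 1. All 10 members had an unadjusted limma p under 0.05, against 86.7% of all gene models. These differences are averages over the seasons. By season, 5 F3'5'H copies were called higher in 2012, 6 in 2013 and 3 in 2014. The background was 7.92%, 7.68% and 8.43% of all gene models. VIT_06s0009g02860 and VIT_06s0009g02920 reached at most 0.200 and 0.0838 RPKM in 2014, so their differences in that season could only be near 0. The added 1 in log2(RPKM + 1) also shrinks differences near 0 RPKM, which bears most on the lowest copies. VIT_06s0009g02860 averaged 1.08 RPKM on day 21 and 0.120 RPKM in green berries, a log2 difference of 0.76 ± 0.06. With 0.1 in place of 1, 6 of the 10 members were called higher, against 10.9% of all gene models, and 6 were called after quantile normalization, which also turned the split of all calls of 1567 higher and 4557 lower into 2596 higher and 2960 lower, with an all-gene median of 0.06. The F3'H models differed by 0.30 ± 0.06 (VIT_17s0000g07200) and 0.41 ± 0.07 (VIT_17s0000g07210) and were not called.

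Into veraison (day 0 minus the green stage), 4 F3'5'H copies rose, against 4.61% of all gene models called higher. This is for the average of the 3 seasons. By season, 6 copies were called higher in 2012, 5 in 2013 and 2 in 2014, against 6.07%, 4.19% and 5.03% of all gene models. Day 0 of 2014 had far less sugar than day 0 of the other seasons, as described below. VIT_06s0009g02830 averaged 25.3 RPKM on day 0 and 6.22 RPKM in green berries (log2 difference 1.72 ± 0.15, limma adjusted p = 1.31e-20). VIT_06s0009g02880 differed by 1.56 ± 0.11, VIT_06s0009g02840 by 1.14 ± 0.10 and VIT_06s0009g02970 by 1.04 ± 0.09.

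The F3'H models lay on the other side of 0 over the same interval. VIT_17s0000g07200 averaged 26.1 RPKM on day 0 and 39.6 RPKM in green berries, a log2 difference of -0.52 ± 0.06. VIT_17s0000g07210 averaged 5.17 RPKM on day 0 and 6.14 RPKM in green berries (-0.28 ± 0.07), and its difference was 0.11 after quantile normalization. Neither reached a size of 1. The same normalization gave 1324 higher and 1691 lower calls over all gene models, in place of 944 and 2611.

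The steps around the F3'5'H maximum were tested in 2013 and 2014, which had both days 7 and 14. From day 0 to day 7, 7 of 8 copies had an adjusted p below the threshold in the upward direction, but every difference lay under 1, the largest at 0.997, so 0 of 10 members were called, against 1.79% of all gene models. The limma count of members at an unadjusted p under 0.05 was 9, against 47.7% of all gene models. The count of 0 called members is for the average of 2013 and 2014. Within 2013, 1 F3'5'H copy was called higher, against 1.88% of all gene models called higher. Within 2014, 3 copies were called higher, against 0.391% of all gene models. Day 0 was not at the same sugar content in these seasons, as described below. The averaged count also depended on the size limit. It was 5 with 0.1 in place of 1 (4.48% of all gene models) and 3 after quantile normalization (1.70%). It was 2 without replicate 2 (2.71%) and 3 without replicate 3 (1.36%). Over all gene models 215 were called higher and 151 lower, or 246 and 102 after quantile normalization.

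From day 7 to day 14, 3 copies fell, against 1.47% of all gene models called lower. VIT_06s0009g02830 averaged 15.5 RPKM on day 14 and 42.4 RPKM on day 7 (log2 difference -1.39 ± 0.18, limma adjusted p = 9.53e-11). VIT_06s0009g02840 differed by -1.17 ± 0.12 and VIT_06s0009g02810 by -1.02 ± 0.12. In these days both F3'H models differed by 0.16 (SE 0.07 for VIT_17s0000g07200 and 0.09 for VIT_17s0000g07210) and were not called.

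After veraison the F3'H models had larger log2 differences than the F3'5'H copies. From day 0 to day 35 (day 32 in 2012), both F3'H models rose and no F3'5'H copy was called, against 6.42% of all gene models called higher. VIT_17s0000g07200 averaged 69.3 RPKM on day 35 and 26.1 RPKM on day 0 (log2 difference 1.38 ± 0.06, limma adjusted p = 2.66e-44). VIT_17s0000g07210 averaged 11.4 RPKM on day 35 and 5.17 RPKM on day 0 (1.13 ± 0.07, adjusted p = 1.97e-29).

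For VIT_17s0000g07200 in 2013, the lowest, median and highest of 6 libraries were 72.9, 79.5 and 91.2 RPKM on day 35, against 25.1, 28.3 and 33.9 RPKM on day 0. The 2 days did not overlap. The F3'5'H copies had log2 differences of -0.17 to 0.58 over this interval. Of the 8 copies, 4 were higher and 0 lower at a limma adjusted p of at most 0.05, all under the size of 1. At an unadjusted limma p under 0.05 there were 6 of the 10 members, against 82.2% of all gene models. VIT_06s0009g02830 had the lowest difference of the copies. VIT_06s0009g02830 averaged 19.6 RPKM on day 35 and 25.3 RPKM on day 0 (-0.17 ± 0.15, adjusted p = 0.287). In the shorter steps, day 21 minus day 0 and day 35 minus day 21, 0 of 10 members were called, against 11.5% and 1.85% of all gene models, and 5 and 3 members had an unadjusted p under 0.05, against 76.4% and 63.3% of all gene models.

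The ratio of summed F3'5'H to summed F3'H shows both courses together. Its median over the 6 libraries of a day in 2013 was 0.282 on day -14, 2.15 on day 0, 3.24 on day 7, 1.03 on day 14 and 0.792 on day 35. In 2014 it was 0.303 on day -14, 0.855 on day 0, 1.39 on day 7, 0.586 on day 14 and 0.456 on day 35. In 2012 it was 0.640 on day -18, 2.47 on day 0, 1.31 on day 11 and 0.826 on day 32. The sum of F3'5'H exceeded that of F3'H in 22 of 48 libraries of 2012, 23 of 54 of 2013 and 8 of 63 of 2014.

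The labelled day 0 was not the same point of sugar content in each season. Mean sugar on day 0 was 12.3 ± 1.3 g per 100 ml in 2012, 10.5 ± 0.8 in 2013 and 1.72 ± 0.30 in 2014 (SD, n = 6 each), and on day 7 of 2014 it was 12.1 ± 0.7. Set by sugar, the ratio was highest between 9 and 16 g per 100 ml in each season. There its lowest, median and highest were 1.05, 2.47 and 2.76 in the 6 libraries of 2012, 1.40, 2.90 and 3.52 in the 12 of 2013, and 0.469, 1.25 and 2.60 in the 8 of 2014. Above 22 g per 100 ml the medians were 0.822, 0.909 and 0.496 in 2012, 2013 and 2014.

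**Figure D3:**
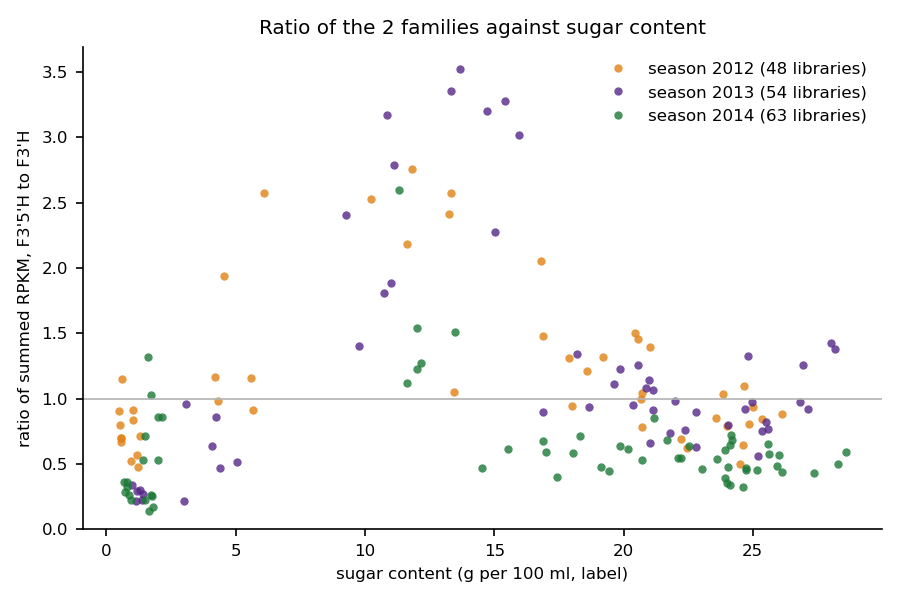
Ratio of summed RPKM of F3'5'H to that of F3'H in each of 165 libraries against the labelled sugar content in g per 100 ml, coloured by season; the grey line marks equal sums. The ratio is highest between 9 and 16 g per 100 ml in each season, with medians of 2.47, 2.90 and 1.25 in 2012, 2013 and 2014.

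In 2014 both families were lower than in the other seasons. Over the 7 days sampled in both years, summed F3'5'H averaged 23.9 RPKM in 2014 (lowest 6.53, highest 72.2) and 69.4 RPKM in 2013 (lowest 13.8, highest 142), over 42 libraries each. Summed F3'H averaged 35.7 RPKM in 2014 (17.5 to 63.9) and 62.5 RPKM in 2013 (29.5 to 111). Of the 10 members 7 fell in 2014 relative to 2013, 1 F3'H model and 6 F3'5'H copies, against 1.98% of all gene models called lower, with a median log2 difference of -0.00 over all gene models. A season's vineyard conditions and the handling of its libraries cannot be told apart in this design.

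The widest gap was in VIT_06s0009g02920. Over the 7 shared days its lowest, median and highest were 0, 0 and 0.0838 RPKM in 2014, against 0.791, 4.11 and 9.84 RPKM in 2013, so no library of one season entered the range of the other. Its log2 difference was -2.28 ± 0.05 (limma adjusted p = 7.69e-73). VIT_06s0009g02970 had 0, 1.08 and 2.39 RPKM in 2014, against 1.43, 7.71 and 14.8 RPKM in 2013, ranges that overlapped across days (-2.05 ± 0.06).

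VIT_06s0009g02810 averaged 1.99 RPKM in 2014 and 8.53 RPKM in 2013 (-1.64 ± 0.06), VIT_06s0009g02880 averaged 3.27 RPKM in 2014 and 11.4 RPKM in 2013 (-1.49 ± 0.07), and VIT_06s0009g02840 averaged 3.59 RPKM in 2014 and 8.92 RPKM in 2013 (-1.08 ± 0.06). VIT_06s0009g02860 averaged 0.0338 RPKM in 2014 and 1.39 RPKM in 2013 (-1.11 ± 0.04). The F3'H model that fell was VIT_17s0000g07210, with 3.48 RPKM in 2014 and 9.18 RPKM in 2013 (-1.16 ± 0.05). The other F3'H, VIT_17s0000g07200, averaged 32.2 RPKM in 2014 and 53.4 RPKM in 2013, a difference of -0.69 ± 0.04 that did not reach a size of 1.

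VIT_06s0009g02830 was also not called, with means of 13.8 RPKM in 2014 and 25.9 RPKM in 2013 (-0.83 ± 0.10, adjusted p = 7.75e-13), nor was VIT_06s0009g02910 (-0.70 ± 0.07). With unequal differences among the copies, the make-up of the F3'5'H sum over the 7 shared days was not the same. VIT_06s0009g02830 held 57.6% of it in 2014 and 37.3% in 2013, VIT_06s0009g02970 held 4.18% in 2014 and 11.2% in 2013, and VIT_06s0009g02920 held 0.0703% in 2014 and 6.40% in 2013.

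Relative to 2012, on days 0 and 21, the count was also 7 lower in 2014, against 2.46% of all gene models called lower. This comparison shares the libraries of 2014 with the one above. Between 2013 and 2012 on the same days, 0 of 10 members were called, against 1.59% of all gene models. The limma count at an unadjusted p under 0.05 was 6, against 61.1% of all gene models, and the differences lay between -0.44 and 0.28 on the log2 scale. Over all gene models 147 were called higher and 179 lower, or 94 and 213 after quantile normalization.

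**Figure D4:**
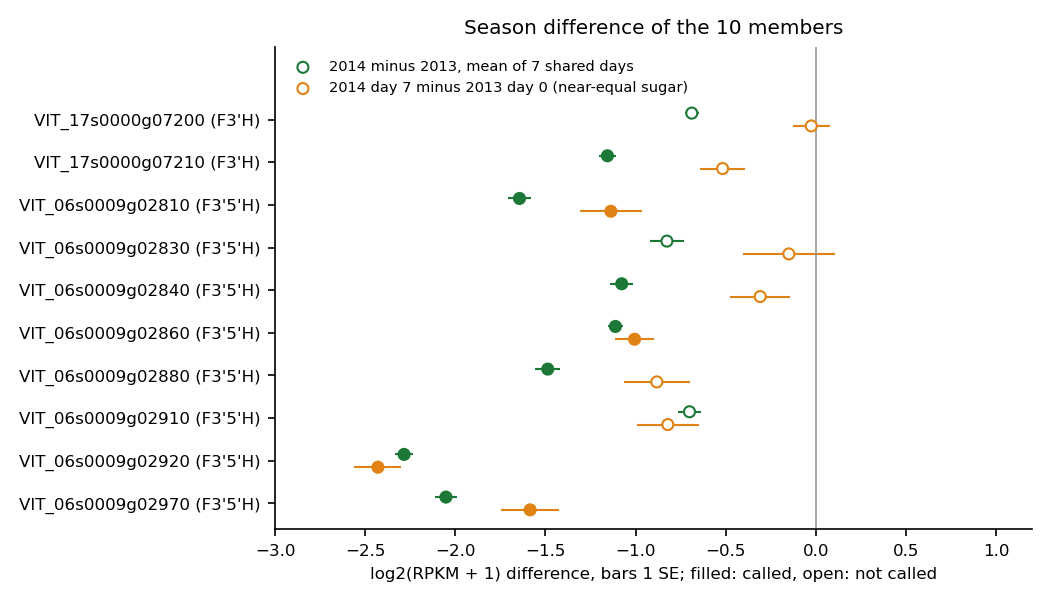
Difference in log2(RPKM + 1) of each member between 2014 and 2013, averaged over 7 shared days (green, upper) and between day 7 of 2014 and day 0 of 2013, which had near-equal sugar (orange, lower); bars are 1 SE and filled symbols were called. VIT_06s0009g02920 lies furthest left in both, at -2.28 and -2.43, and VIT_17s0000g07200 and VIT_06s0009g02830 lie near 0 at near-equal sugar.

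The seasons were also compared at near-equal sugar. Day 7 of 2014 (12.1 g per 100 ml) was set against day 0 of 2013 (10.5 g per 100 ml), and 4 of 10 members were called lower, against 1.77% of all gene models. VIT_06s0009g02920 averaged 0.0348 RPKM on day 7 of 2014 and 4.78 RPKM on day 0 of 2013 (-2.43 ± 0.13, limma adjusted p = 1.08e-33). VIT_06s0009g02970 differed by -1.59 ± 0.16, VIT_06s0009g02810 by -1.14 ± 0.17 and VIT_06s0009g02860 by -1.01 ± 0.11. The count was 2 without replicate 3, against 2.16% of all gene models called in either direction. It was also 2 after quantile normalization (2.14%), when VIT_06s0009g02810 and VIT_06s0009g02860 lay just under a size of 1.

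For VIT_06s0009g02830 the lowest, median and highest of 6 libraries were 20.8, 29.0 and 46.7 RPKM on day 7 of 2014, against 19.7, 32.7 and 54.2 RPKM on day 0 of 2013, and the ranges overlapped almost wholly. Its log2 difference was -0.15 ± 0.25 (adjusted p = 0.777). VIT_17s0000g07200 averaged 28.3 RPKM on day 7 of 2014 and 28.9 RPKM on day 0 of 2013 (-0.02 ± 0.10, adjusted p = 0.924). The 95% intervals of these log2 differences ran from -0.65 to 0.36 for VIT_06s0009g02830 and from -0.23 to 0.18 for VIT_17s0000g07200.

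Day 0 of 2012 had sugar closer still to day 7 of 2014, at 12.3 g per 100 ml, and against it 6 of 10 members were lower on day 7 of 2014, with 2.77% of all gene models called lower. This comparison shares the libraries of day 7 of 2014 with the one above. The 6 were VIT_06s0009g02920 (-2.88 ± 0.13), VIT_06s0009g02970 (-1.91 ± 0.16), VIT_06s0009g02880 (-1.48 ± 0.18), VIT_06s0009g02810 (-1.38 ± 0.17), VIT_06s0009g02860 (-1.35 ± 0.11) and the F3'H model VIT_17s0000g07210 (-1.15 ± 0.12). VIT_17s0000g07210 averaged 3.06 RPKM on day 7 of 2014 and 8.82 RPKM on day 0 of 2012, and its difference was -0.86 without library 2 of day 0 of 2012 at 75% thinning and -0.89 without replicate 2, so it was not called there. VIT_06s0009g02830 averaged 30.7 RPKM on day 7 of 2014 and 29.3 RPKM on day 0 of 2012 (0.26 ± 0.25, limma adjusted p = 0.407), with a 95% interval of -0.24 to 0.77.

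The near absence of 2 copies held across the whole of 2014. In its 63 libraries VIT_06s0009g02920 was listed at 0 in 41 and reached at most 0.0838 RPKM, and VIT_06s0009g02860 was listed at 0 in 21 and reached at most 0.200 RPKM. In 2013 the lowest and highest of 54 libraries were 0.375 and 9.84 RPKM for VIT_06s0009g02920, and 0.0287 and 3.58 RPKM for VIT_06s0009g02860. In 2012 they were 0.633 and 8.65 RPKM for VIT_06s0009g02920, and 0.101 and 2.81 RPKM for VIT_06s0009g02860, over 48 libraries.

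Both copies were listed at 0 in no library of 2012 or 2013. Such a pattern was uncommon in the table. Of 16944 gene models with means of at least 1 RPKM in both other seasons, 88 (0.519%) stayed below 0.5 RPKM in every library of 2014. The same count was 2 of 16669 for 2013 and 4 of 16764 for 2012. Other gene models with IDs between those of the copies were also low in 2014. VIT_06s0009g02930 averaged 0 RPKM in 2014, 0.784 in 2013 and 0.768 in 2012. In the same order, VIT_06s0009g02820 averaged 0.0464, 0.978 and 1.03 RPKM and VIT_06s0009g02850 averaged 0.407, 1.15 and 1.15 RPKM. VIT_06s0009g02870 was listed at 0 in every library of all seasons. Whether the libraries of 2014 were aligned and quantified with the same settings and annotation as the others is not given in the sources used here. Whether the values near 0 reflect expression, that processing or the assignment of reads among copies was not tested. Without the 2 copies, the sum of the other 6 averaged 23.8 RPKM in 2014 and 63.6 RPKM in 2013 over the shared days.

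The ripening difference was then compared among the 3 seasons. It differed among them for 6 of 10 members by a moderated F-test in limma, against 49.7% of all gene models. VIT_06s0009g02860 had log2 differences of 1.26 ± 0.11 in 2012, 1.01 ± 0.11 in 2013 and -0.00 ± 0.11 in 2014, and VIT_06s0009g02920 had 1.02 ± 0.13, 1.39 ± 0.13 and -0.01 ± 0.13. Both lay near 0 RPKM in all of 2014, so their difference in that season could only be near 0. VIT_06s0009g02880 had 1.75 ± 0.18 in 2012, 2.25 ± 0.18 in 2013 and 2.04 ± 0.18 in 2014, and was not among the 6 (adjusted p = 0.230).

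VIT_17s0000g07200 was among the 6, with 0.39 ± 0.10 in 2012, -0.04 ± 0.10 in 2013 and 0.55 ± 0.10 in 2014. Without replicate 3 the count was 2 of 10, against 36.4% of all gene models.

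Thinning was compared as 75% minus 50% over the 26 days sampled at both levels. Of the 10 members 0 were called at an adjusted p of 0.05, against 2.90% of all gene models, and 0 had an unadjusted limma p under 0.05, against 14.0% of all gene models. The log2 differences lay between -0.03 and 0.05, with 95% intervals of -0.01 to 0.10 for VIT_17s0000g07200 and -0.17 to 0.11 for VIT_06s0009g02830. Over all gene models 141 were called higher and 453 lower at 75%, or 311 and 391 after quantile normalization. Summed F3'5'H averaged 50.8 RPKM at 75% and 49.9 RPKM at 50% thinning, and was higher at 75% on 13 of the 26 days. Summed F3'H averaged 52.7 RPKM at 75% and 50.7 RPKM at 50% thinning, and was higher at 75% on 16 days.

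VIT_17s0000g07200 averaged 45.3 RPKM at 75% and 43.6 RPKM at 50% thinning (0.05 ± 0.03, adjusted p = 0.511), and VIT_06s0009g02830 averaged 19.2 RPKM at 75% and 19.6 RPKM at 50% (-0.03 ± 0.07, adjusted p = 0.912). No member was called within 2012, 2013 or 2014 (background 1.01%, 0.0635% and 0.152% of all gene models). The same held for each phase, before veraison (background 2.03%), veraison to day 14 (3.54%) and day 21 on (5.04%). Nor was any called in the test of whether the ripening difference varied with thinning (background 1.00%) or whether the thinning difference varied with season (0.0293%). At an unadjusted limma p under 0.05, 1 member was found before veraison, 1 from veraison to day 14, and 1 in the test of ripening by thinning, against 8.89%, 16.1% and 12.3% of all gene models.

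**Figure D5:**
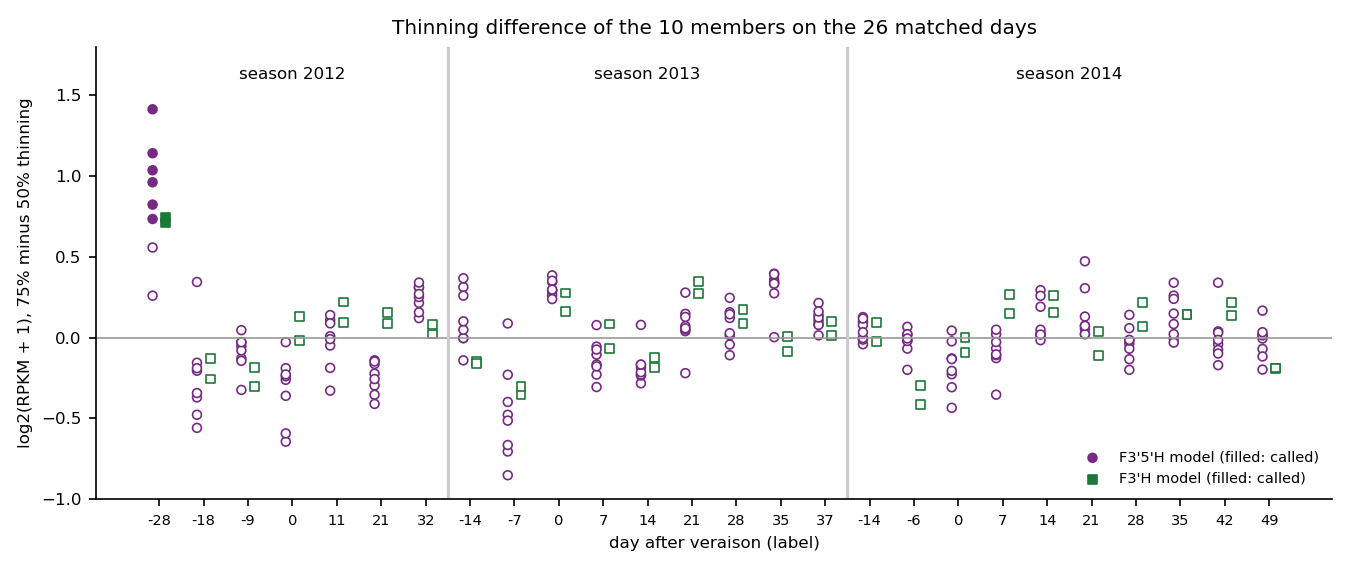
Difference in log2(RPKM + 1) between 75% and 50% thinning for each member on each of the 26 matched days (circles F3'5'H, squares F3'H; filled where the limma adjusted p was at most 0.05). Filled symbols occur on day -28 of 2012 and on no other day.

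On single days, members were called on day -28 of 2012 and on none of the other 25 days, on which 0% to 16.6% of all gene models were called. Among those 25 days, day -7 of 2013 had the most members at an unadjusted limma p under 0.05. There were 6 of 10, against 3.79% of all gene models. The F3'5'H copies had a median log2 difference of -0.50 on that day, lower at 75% thinning. On day -28, 8 of 10 members were higher at 75% thinning, against 12.6% of all gene models called higher and 21.0% called in either direction. Summed F3'5'H was 65.5, 47.0 and 59.9 RPKM at 75%, against 25.3, 24.8 and 24.3 RPKM at 50% thinning. Summed F3'H was 56.9, 59.2 and 66.2 RPKM at 75%, against 38.0, 35.5 and 35.0 RPKM at 50%. The 2 levels did not overlap in either sum.

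VIT_06s0009g02840 had 12.4, 9.17 and 11.6 RPKM at 75%, against 3.66, 3.27 and 3.56 RPKM at 50% thinning, a log2 difference of 1.41 ± 0.23 (limma adjusted p = 7.01e-07). VIT_17s0000g07200 had 48.1, 50.8 and 55.5 RPKM at 75%, against 32.6, 30.5 and 30.0 RPKM at 50% (0.71 ± 0.14, adjusted p = 5.43e-05). The members not called were VIT_06s0009g02860 (0.26 ± 0.15) and VIT_06s0009g02910 (0.56 ± 0.25). Leaving out single libraries of that day gave 6 to 8 called members, against 9.45% to 11.0% of all gene models called higher. Leaving out replicate 3 throughout gave 5, against 7.22% of all gene models called higher.

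Of the whole table, 4291 gene models were called on day -28, and their part in the members' difference was not tested. Sugar on that day lay between 0.48 and 0.59 g per 100 ml in all 6 libraries. Relative depth was 0.738, 0.864 and 0.798 times the median at 75%, against 1.00, 0.955 and 0.837 times at 50% thinning. On the next sampling, day -18, summed F3'5'H was 37.1, 26.3 and 17.9 RPKM at 75%, against 22.8, 50.3 and 32.6 RPKM at 50%, overlapping ranges with 0 of 10 members called by limma, against 16.6% of all gene models, and 3 at an unadjusted p under 0.05, against 30.9%. The thinning difference itself differed between days -28 and -18 for 7 members, against 31.8% of all gene models. It did so for 5 members without the first 2 libraries of day -18 at 50% thinning, against 9.16% of all gene models, and for 4 without replicate 3, against 29.7%.

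Across the 55 group means, pairs within a family had higher correlations by median than pairs between families. Within 2014 this did not hold for the F3'5'H pairs. On the log2 scale the F3'H pair had a Pearson r of 0.89, the 28 pairs of F3'5'H copies a median of 0.86 (0.66 to 0.97), and the 16 pairs between families a median of 0.58 (0.30 to 0.81). These groups share seasons and days, and the values are a description. Within single seasons the median of F3'5'H pairs was 0.85 in 2012, 0.95 in 2013 and 0.39 in 2014, and that of pairs between families 0.57 in 2012, 0.25 in 2013 and 0.47 in 2014. The order of these medians was thus the other way round in 2014. The F3'H pair had 0.95 in 2012, 0.99 in 2013 and 0.99 in 2014. Within 2014 the F3'5'H pairs ran from -0.07 to 0.98. VIT_06s0009g02860 and VIT_06s0009g02920 lay near 0 RPKM in that season, and their part in the low median was not tested.

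Of 16000 gene models with a highest group mean of at least 5 RPKM, the closest to summed F3'5'H was VIT_06s0009g03010 (r = 0.87 over 55 group means), whose ID follows closely on the F3'5'H copies. The closest to VIT_17s0000g07200 was VIT_03s0180g00200 (0.91), and the closest to VIT_17s0000g07210 was VIT_16s0022g01160 (0.92). No product is assigned to these IDs in the files.

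A list of 28 further gene models of the flavonoid pathway was followed as counts. On day 21 relative to green berries 14 rose and 4 fell, against 7.66% and 22.3% of all gene models, with a median log2 difference of 0.95. Into veraison 12 rose and 2 fell, against 4.61% and 12.8% of all gene models, with a median of 0.45, against 0.99 for the 8 F3'5'H copies. Between 2014 and 2013 none of the 28 was called, against 2.02% of all gene models. Their median was -0.18, against -1.30 for the F3'5'H copies. Under thinning over all matched days 0 were higher and 1 lower at 75%, against 0.689% and 2.21% of all gene models. On day -28 of 2012 10 were higher and 2 lower at 75%, against 12.6% and 8.39% of all gene models.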

How the data were processed

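Expression was deposited by the authors as RPKM for 29971 gene models in 165 non-directional libraries. TopHat2 2.0.6 and Cufflinks 2.0.2 are named in the submitters' processing notes, and the genome build and settings are not given in the sources used here. Without strand, reads of overlapping antisense genes are included. Of the low RPKM values, 52.6% lay within 0.1 of a whole number of reads, so reads were not recovered and counting error is not known. Values were tested as log2(RPKM + 1), which understates changes of low gene models.

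limma 3.58.1 (R 4.3.3) fitted 55 group means to the 20460 gene models with at least 1 RPKM in at least 3 libraries, with an intensity trend, 110 residual and 3.24 prior degrees of freedom, and Benjamini-Hochberg adjustment. The procedure was tested on simulated data. Thinning calls needed an adjusted p of at most 0.05, and ripening and season calls also a log2 difference of at least 1. The text names all 10 members, and, of the 5 gene models with the highest Pearson's r over group means to the F3'5'H sum and to each F3'H, the closest. The flavonoid pathway list is given as counts, since no product is annotated. Of the IDs, 0 matched the RefSeq table, so no sequences or coordinates are given. Members, lists and the tests were chosen with earlier results of these data known. The tests of days 7, 14 and 35, the test of days -28 against -18, the count of gene models near 0 in 1 season, and the leaving out of single day -28 libraries, were added after seeing the data. Alternatives were a pseudocount of 0.1, no filter, quantile normalization, a replicate block, sugar as a covariate, and leaving out replicates, days or libraries. Figures were drawn with matplotlib 3.10.9 in Python 3.11.15.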

Additional observations from a re-analysis of the deposited data

Results flagged for a closer look

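The ripening difference varied among the 3 seasons for 6 members by limma's moderated F-test, with Benjamini-Hochberg adjusted p-values of 2.07e-12 for VIT_06s0009g02860, 3.66e-10 for VIT_06s0009g02920, 0.00085 for VIT_17s0000g07200, 0.00577 for VIT_06s0009g02810, 0.0261 for VIT_06s0009g02970 and 0.0269 for VIT_06s0009g02840. The same test called 49.7% of all gene models, a share near that of the members. Without replicate 3 it called 2 members, against 36.4% of all gene models. VIT_06s0009g02860 and VIT_06s0009g02920, with the lowest p-values, reached at most 0.200 and 0.0838 RPKM in 2014. Their ripening difference in that season could therefore only be near 0.

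The difference between 75% and 50% thinning varied between days -28 and -18 of 2012 for 7 members in limma, against 31.8% of all gene models, for 5 without the first 2 libraries of day -18 at 50% thinning (9.16%) and for 4 without replicate 3 (29.7%). The adjusted p-values were 1.63e-06 for VIT_06s0009g02840, 0.000117 for VIT_06s0009g02880, 0.000132 for VIT_06s0009g02920, 0.000577 for VIT_17s0000g07200, 0.000742 for VIT_06s0009g02970, 0.000834 for VIT_17s0000g07210 and 0.0367 for VIT_06s0009g02810. Day -28 was the earliest sampling of the 3 seasons, and no other season has a matching day.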

How the results depend on the processing

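Under every alternative run, the 2014 to 2013 count stayed between 5 and 8 members, against 1.38% to 3.93% of all gene models called in either direction. The thinning count over all days stayed at 0 in each. The ripening count of 3 was 6 with a pseudocount of 0.1 (10.9% of all gene models called higher) and 6 after quantile normalization (12.7%). The count for day 7 of 2014 minus day 0 of 2013, 4, was 2 after quantile normalization (2.14% of all gene models). It was 2 to 5 without single replicates (2.04% to 2.26%). The day 7 minus day 0 count of 0, for the average of 2013 and 2014, was 5 with a pseudocount of 0.1. It was 3 after quantile normalization, and 0 to 3 without single replicates. Within single seasons it was 1 in 2013 and 3 in 2014. Without single replicates, the thinning count from veraison to day 14 was 0 to 1. In the same runs, that of day -28 was 5 to 9, against 7.22% to 9.83% of all gene models called higher. That of day -28 minus day -18 was 4 to 7 (17.2% to 29.7% called), and that of ripening by season 2 to 5 (36.4% to 46.6%). Over all gene models, 594 thinning calls were 234 with sugar as a covariate, 1187 without the first 2 libraries of day -18 (50%), 907 without library 2 of day 0 (75%) of 2012, and 120 to 558 without single replicates. Without VIT_06s0009g02830, the F3'5'H sum was 10.1 RPKM in 2014 and 43.5 RPKM in 2013, and the ratio 0.292 in 2014 and 0.808 in 2013. With a replicate block, the ripening count was 3, against 7.66% of all gene models called higher. The 2014 to 2013 count was then 7 and the 2014 to 2012 count 8, against 1.96% and 3.05% called in either direction. Thinning calls over all gene models were 615 with that block. Same-numbered samples of the 2 thinning levels had a median correlation of deviations of -0.008, above 0.1 in 20 of 78 pairs (lowest -0.388, highest 0.612). The labels do not say whether such samples share a row or block, and these values cannot decide it.

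Signs turned only for uncalled log2 differences, and the cause was not tested. After quantile normalization they were 0.114 (VIT_17s0000g07210, into veraison), -0.0367 (VIT_17s0000g07200, 2013 minus 2012), 0.0727 (VIT_17s0000g07200, day 7 of 2014 minus day 0 of 2013), 0.0116 (VIT_06s0009g02920, thinning) and 0.0934 (VIT_06s0009g02840, day 35 minus day 0). With sugar as a covariate, thinning differences were -0.00902 (VIT_06s0009g02810), -0.0347 (VIT_06s0009g02880) and -0.0234 (VIT_06s0009g02970). They were 0.00979 for VIT_06s0009g02920 without the day -18 libraries and 0.0119 for VIT_06s0009g02830 without the day 0 library, which also gave -0.203 for VIT_06s0009g02830 in day 7 of 2014 minus day 0 of 2012. Without single replicates, ranges that crossed 0 were, for day 35 minus day 21, -0.00209 to 0.15 (VIT_06s0009g02910), -0.0115 to 0.0678 (VIT_06s0009g02920) and -0.118 to 0.104 (VIT_06s0009g02830). For 2013 minus 2012 the range was -0.0894 to 0.519 (VIT_06s0009g02830), for day 7 of 2014 minus day 0 of 2012 -0.182 to 0.648 (VIT_06s0009g02830), and for day 7 of 2014 minus day 0 of 2013 -0.0654 to 0.0075 (VIT_17s0000g07200). For thinning they were -0.00829 to 0.0693 (VIT_06s0009g02910), -0.000855 to 0.0335 (VIT_06s0009g02880) and -0.0259 to 0.0277 (VIT_06s0009g02920). For VIT_06s0009g02910, the range was -0.217 to 0.455 for day -28 minus day -18 and -0.00175 to 0.229 for day 7 minus day 0. For day 35 minus day 0 they were -0.377 to 0.0276 (VIT_06s0009g02830) and -0.14 to 0.0475 (VIT_06s0009g02840). Without single days, thinning differences were -0.0365 to 0.0686 (VIT_06s0009g02840), -0.0407 to 0.0538 (VIT_06s0009g02880), -0.0315 to 0.0477 (VIT_06s0009g02970), -0.046 to 0.0204 (VIT_06s0009g02920) and -0.0911 to 0.00225 (VIT_06s0009g02830). Counting error could not be given, since the depth behind each value is unknown.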
